A study of Arabidopsis thaliana with 12 samples.

Results

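The comparison described here sets seedlings that over-express the long noncoding RNA (lncRNA) APOLO against wild type (WT), both kept at 23 °C. Its members are 6 of the 12 RNA-Seq libraries of the series, chosen by genotype and temperature alone: OE APOLO-1 at 23 °C, replicates A, B and C, and WT Col-0 at 23 °C, replicates A, B and C. All were made from 4-day-old Arabidopsis thaliana seedlings. The other 6 libraries are WT moved to 29 °C for 6 h and the vim1-3 mutant at 23 °C, and they enter here for the estimate of the spread and as a reference for level. OE APOLO-1 carries APOLO under the 35S promoter, which drives expression in most plant cells. It is 1 transgenic line, so what belongs to the line and what belongs to APOLO cannot be told apart. Reads from the transgene and from the endogenous APOLO locus are counted together. The WT libraries are labelled as wild type. Of 37336 genes in the files, 25425 had a count in at least 1 of the 6 libraries, and 20664 passed the filter on low counts and were tested.

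APOLO is transcribed next to PINOID (PID), which encodes a protein kinase that sets the cellular position of PIN auxin carriers. APOLO RNA can pair with DNA at distant loci, where it acts together with LHP1, a chromodomain protein of the Polycomb system. The study set it beside VIM1, which binds methylated cytosine and helps to maintain DNA methylation. The genes that differed most between the libraries below belong to other well-known systems. Camalexin is a sulfur-containing indole compound that Arabidopsis makes from tryptophan against microbes. Jasmonates are lipid-derived hormones that rise after wounding and act by removing JAZ repressors from transcription factors. Ethylene-response factors (ERFs) and WRKY factors switch on defence genes after wounding, touch or the sensing of microbial molecules. Secondary walls are the thick lignified walls that xylem vessels lay down before they die.

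Library totals were 20975364, 18178149 and 8824476 counts in WT and 14954264, 18130978 and 19754699 in OE APOLO-1, within the range of 8824476 to 22925019 over the 12 libraries. Values are CPM, counts scaled to the effective size of the library, given in the order A, B and C, and WT or OE APOLO-1 without a temperature stands for the libraries at 23 °C. The 3 WT libraries were not alike. WT A held APOLO reads that WT B and C lacked, and WT B had almost no reads of root hair genes. On the first principal component, which took 58.1% of the variance of log2 CPM, WT A lay at -29.7, WT B at -148.8 and WT C at -102.8, while OE APOLO-1 lay between 34.4 and 36.9. WT at 29 °C lay at 45.6 to 55.1 and vim1-3 at 0.3 to 14.2. All WT libraries at 23 °C were on the negative side of this component, and no other library was. Between WT A and B 3484 genes (16.9%) differed more than 2-fold and between WT B and C 1804 (8.73%), against 344 to 640 (1.66 to 3.10%) between OE APOLO-1 libraries. WT A differed more than 2-fold from single OE APOLO-1 libraries in 1657 to 1978 genes, fewer than from either other WT library. Each WT replicate is therefore shown apart, and counts of calls in the lists are given beside those without single WT libraries where these differ widely. The source of these differences was not tested. In whole seedlings, fewer cells of a type and less RNA per cell cannot be told apart.

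APOLO (AT2G34655, chromosome 2, 14596565 to 14597543 on the plus strand of TAIR10.1) was the check of the over-expression. OE APOLO-1 held 4984, 8949 and 11720 APOLO counts, and WT held 1197, 2 and 1. In CPM these were 352, 463 and 606 in OE APOLO-1 and 57.4, 0.117 and 0.12 in WT. The OE APOLO-1 libraries all lay above the WT libraries, but WT A stood far above WT B and C and above the 0.117 to 0.795 CPM of the other 6 libraries. The OE APOLO-1 mean of 473 ± 127 CPM (SD, n = 3) was 8.25 times the level of WT A. With the WT libraries so far apart, APOLO itself did not pass the threshold (log2 fold change 4.55 ± 1.33 (SE), edgeR quasi-likelihood test on 12 libraries, Benjamini-Hochberg adjusted p = 0.036). Without WT A it did (log2 fold change 11.89, adjusted p = 1.2e-07). WT A means below the library labelled WT 23 °C replicate A, which was kept under its label.

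**Figure D1:**
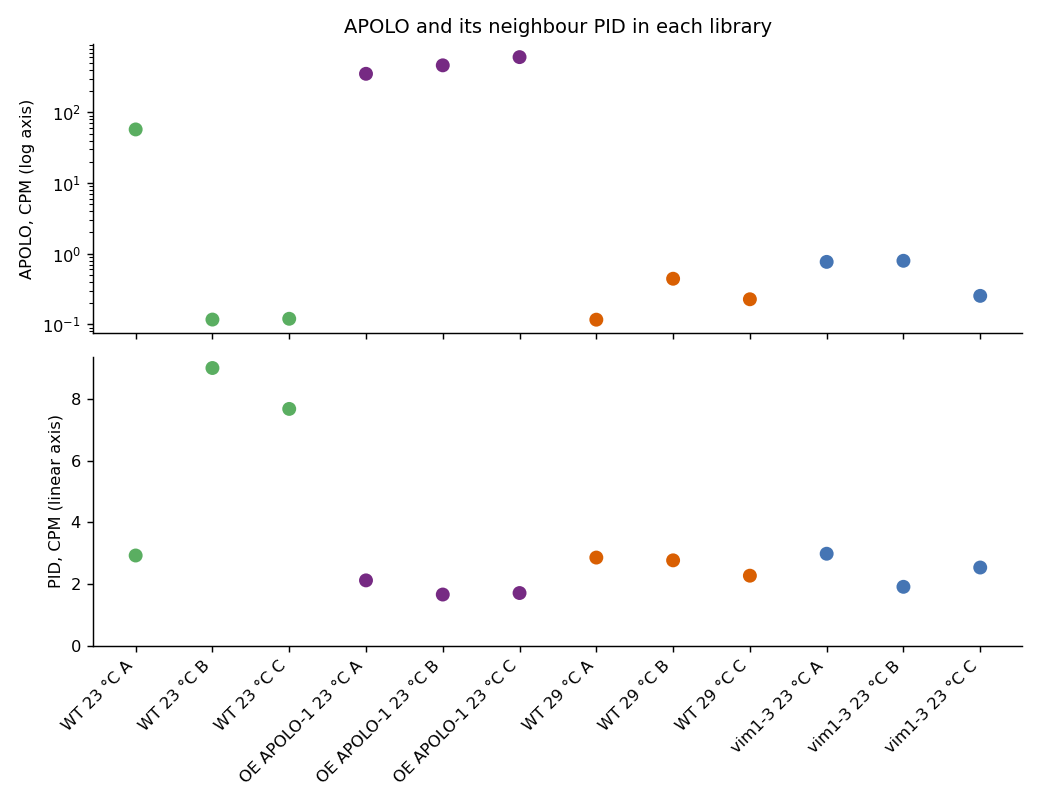
Level of APOLO (upper panel, log axis) and of its neighbour PID (lower panel, linear axis) in CPM, 1 point for each of the 12 libraries. WT A is the 1 WT library at 23 °C with more than 1 CPM of APOLO, and its PID level of 2.92 CPM is the lowest of the 3.

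PID (AT2G34650, chromosome 2, 14589736 to 14592140, minus strand) lies 4425 bases from APOLO. It was at 2.92, 9.02 and 7.69 CPM in WT and 2.12, 1.66 and 1.71 CPM in OE APOLO-1. WT A was the lowest WT library and the nearest to OE APOLO-1, and the groups did not overlap. PID fell by 1.83 ± 0.36 on the log2 scale (SE; edgeR adjusted p = 0.004), and the call was lost without WT B (adjusted p = 0.014), without WT C (adjusted p = 0.016), without any single OE APOLO-1 library (adjusted p = 0.015 to 0.024) and in edgeR on the 6 libraries alone (adjusted p = 0.054). It was also lost with the replicate letter as a block (adjusted p = 0.011), in limma voom (adjusted p = 0.015) and without 3 libraries that deviate together, a setting chosen after seeing the data (adjusted p = 0.07). In WT at 29 °C PID was at 2.86, 2.77 and 2.27 CPM and in vim1-3 at 2.98, 1.91 and 2.53 CPM, closer to OE APOLO-1 than to WT B and C. Of the 11 other genes tested within 30000 bases of APOLO, PID was the 1 called lower (7.68% of all genes) and 0 were called higher (2.6% of all genes). These counts are too few to be read against those shares. ABCC2, a vacuolar ABC transporter on the far side of APOLO, was at 42.1, 87.4 and 77.6 CPM in WT and 42.2, 45.8 and 38.4 CPM in OE APOLO-1, so that WT A overlapped OE APOLO-1 and the difference of -0.71 did not pass (adjusted p = 0.035).

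Among the VIM genes, VIM2 alone passed the test. VIM1 was at 7.05, 3.98 and 6.73 CPM in WT and 11.1, 11.6 and 10.2 CPM in OE APOLO-1, a difference that did not pass the threshold (log2 fold change 0.9 ± 0.23, edgeR adjusted p = 0.016). Its paralog VIM2 was at 1.34, 1.87 and 2.28 CPM in WT and 0.776, 0.725 and 0.465 CPM in OE APOLO-1 and fell by 1.45 ± 0.33 on the log2 scale (adjusted p = 0.0092), from levels that are low in every library. VIM3 had a log2 fold change of 0.63 (adjusted p = 0.075), LHP1 of -0.16 and the maintenance methyltransferase MET1 of 0.2, none past the threshold. YUC2, an enzyme of auxin synthesis, had a log2 fold change of -0.61 ± 0.32 (adjusted p = 0.2). PP2A, the usual reference gene of RT-qPCR in this plant, had -0.14.

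Over all genes, more fell than rose. At an adjusted p below 0.01, 538 genes (2.6% of those tested) were higher in OE APOLO-1 and 1588 (7.68%) were lower, 2126 (10.3%) in all. Every call had groups that did not overlap, as had 3119 genes (15.1%) on the higher side and 3795 (18.4%) on the lower side, called or not. The lower calls were also larger: their median log2 fold change was -1.56, and 615 (38.7%) fell more than 4-fold, against a median of 1.02 and 102 genes for the higher calls. Of the lower calls, 81 had at most 3 counts in each OE APOLO-1 library, and 16 had none there. The lower calls took 7.28, 14.9 and 14.2% of all counts in WT and 4.46 to 4.78% in OE APOLO-1. Their share was 4.45 to 4.56% in WT at 29 °C and 6.66 to 6.79% in vim1-3, so WT at 23 °C was the group that stood apart. The higher calls took 2.07, 1.41 and 1.69% in WT and 2.91 to 3.25% in OE APOLO-1, with 2.72 to 2.82% in WT at 29 °C and 2.54 to 2.72% in vim1-3.

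WT A was most often the WT library nearest to OE APOLO-1. This held for 1501 of the 1588 lower calls (94.5%) and 389 of the 538 higher calls (72.3%). The median difference of lower calls was -0.78 on the log2 scale against WT A, -1.84 against WT B and -1.80 against WT C. For higher calls the medians were 0.74, 1.28 and 1.00. Against every WT library taken singly, 605 lower and 165 higher calls exceeded 2-fold. WT A was also nearer to the OE APOLO-1 mean than to the mean of WT B and C in 894 lower calls (56.3%) and in 150 higher calls (27.9%). Leaving WT A out gave 2566 higher and 3567 lower calls, leaving WT B out 500 and 979, and leaving WT C out 226 and 837. Without 1 OE APOLO-1 library, 646 to 831 of the 2126 calls remained. The fit shares its spread over all 12 libraries, and WT at 23 °C had the widest spread of the 4 groups (median SD of log2 CPM 0.24, against 0.10 to 0.15). With the 6 libraries alone edgeR called 0 genes higher and 2 lower (ORA59 and MRD1) at the same threshold, with 5190 genes at an unadjusted p below 0.05, whereas DESeq2 on these 6 called 427 higher and 1428 lower. MRD1 is outside the rule for named genes. Every count of list members given below as called falls to 0 or 1 in that fit. The gene lists were chosen with earlier results of these data known, so their counts describe and test nothing.

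**Figure D2:**
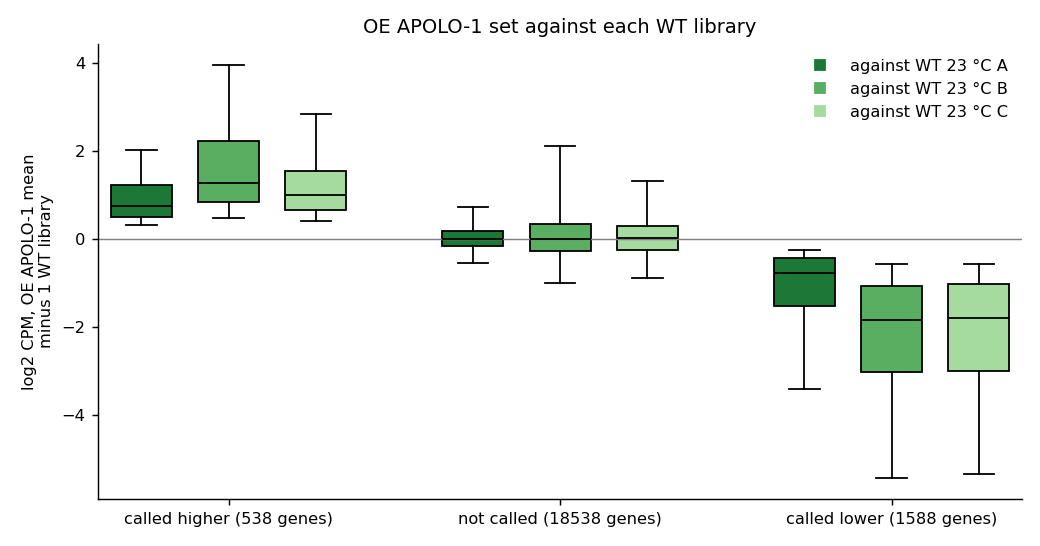
Difference in log2 CPM between the mean of the 3 OE APOLO-1 libraries and each single WT library, for genes called higher (538), not called (18538) and called lower (1588). Boxes span the quartiles with the median as a line, and whiskers run from the 5th to the 95th percentile. Called genes are nearest to 0 against WT A, with medians of 0.74 for higher and -0.78 for lower calls.

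Genes with large falls had few reads left in OE APOLO-1. CYP82C2 (AT4G31970, chromosome 4, 15462350 to 15464563), a cytochrome P450 that hydroxylates an indole-carbonyl nitrile, was at 21.3, 384 and 503 CPM in WT and 0.0705, 0 and 0 CPM in OE APOLO-1. DIN11 (AT3G49620, chromosome 3, 18393747 to 18397050), a 2-oxoglutarate-dependent oxygenase, was at 207, 587 and 596 CPM in WT and 0.423, 0.466 and 0.258 CPM in OE APOLO-1. PRXCA (AT3G49110, chromosome 3, 18200587 to 18203265), a secreted class III peroxidase, was at 23.1, 236 and 319.6 CPM in WT and 0.282, 0.207 and 0.155 CPM in OE APOLO-1. In each case all WT libraries were far above OE APOLO-1 and WT A was the lowest of the WT libraries. The low level was not particular to OE APOLO-1. In WT at 29 °C CYP82C2 was at 0.117, 0 and 0 CPM, DIN11 at 0.525, 0.498 and 0.408 CPM and PRXCA at 0.175, 0.111 and 0.136 CPM. In vim1-3 they were at 4.86, 10.8 and 3.46 CPM, at 5.58, 7.39 and 5.24 CPM and at 1.02, 0.874 and 0.929 CPM, below every WT library at 23 °C. DIN11 fell by 10.23 ± 0.53 on the log2 scale (SE; edgeR adjusted p = 1.9e-05) and PRXCA by 9.8 (adjusted p = 7.9e-04), while CYP82C2 had 1, 0 and 0 counts in OE APOLO-1 and no usable fold (adjusted p = 0.0013). AACT1 (AT5G61160), an acyltransferase that joins agmatine to hydroxycinnamic acids for antimicrobial amides, was at 28.6, 88.6 and 132 CPM in WT and 0.141, 0.0518 and 0.155 CPM in OE APOLO-1. NATA1 (AT2G39030), which makes the defence compound acetylornithine, was at 13.5, 228 and 155 CPM in WT and 0, 0.104 and 0 CPM in OE APOLO-1. The ABC transporter ABCG40 (AT1G15520) was at 14.6, 273 and 156 CPM in WT and 0.141, 0 and 0.0517 CPM in OE APOLO-1, and CYP71B22 (AT3G26200), another cytochrome P450, was at 9.92, 208 and 244 CPM in WT and 0.0705, 0 and 0 CPM in OE APOLO-1. All 4 stayed under 0.2 CPM in every OE APOLO-1 library. GAD4 (AT2G02010), a glutamate decarboxylase, BGLU27, a predicted beta-glucosidase, the extensin-like AT1G26240 and the glutathione transferase GSTU11 showed the same order of libraries. GSTU11 was at 13.8, 59.8 and 72.8 CPM in WT and 0, 0 and 0.103 CPM in OE APOLO-1 and GAD4 at 16, 158 and 111 CPM in WT and 0.353, 0.207 and 0.0517 CPM in OE APOLO-1.

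Genes of camalexin and related indole compounds fell nearly as a whole. Their list was chosen with earlier results of these data known, so its count carries no test. Of 17 genes listed, 16 were tested, 15 were called lower (7.68% of all genes) and 1, the transporter ABCG34, higher. Their median log2 fold change was -4.14, against -0.03 over all genes, and it was -2.56 against WT A, -4.54 against WT B and -4.61 against WT C. The median level of the list was 6.53, 8.53 and 8.67 log2 CPM in WT and 4.64, 4.16 and 3.82 in OE APOLO-1, with 2.01 to 2.74 in WT at 29 °C and 4.94 to 5.41 in vim1-3. CYP79B2 and CYP79B3 convert tryptophan to indole-3-acetaldoxime, the entry to the pathway. CYP79B2 (AT4G39950, chromosome 4, 18525042 to 18527602) was at 152, 731 and 796 CPM in WT and 47.3, 36.1 and 35.7 CPM in OE APOLO-1 and fell by 3.82 ± 0.56 on the log2 scale (SE; edgeR adjusted p = 0.0018), and CYP79B3 fell by 3.25. The next enzymes are CYP71A12 and CYP71A13, near-identical neighbours between which reads could be split, so that their separate values are uncertain. CYP71A12 was at 128, 654 and 761 CPM in WT and 32.7, 22.9 and 14.5 CPM in OE APOLO-1, and CYP71A13 was at 7.67, 61 and 65 CPM in WT and 0, 0 and 0.103 CPM in OE APOLO-1. PAD3 (AT3G26830, chromosome 3, 9887917 to 9889791), which closes the camalexin ring, was at 44, 356 and 398 CPM in WT and 4.66, 3.36 and 2.22 CPM in OE APOLO-1 and fell by 6.3 ± 0.83 (adjusted p = 0.0012). The WT levels of these genes in WT A lay between those of OE APOLO-1 and of WT B and C. FOX1, of the indole-carbonyl nitrile branch, fell by 4.75, and the glutathione-handling enzyme GGP1 by 2.91. GSTF6 (AT1G02930), a glutathione transferase assigned to this pathway with a near-identical neighbour, was at 831, 3038 and 2623 CPM in WT and 118, 76.2 and 77.3 CPM in OE APOLO-1 and fell by 4.58.

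The transcription factors placed above the pathway fell as well. MYB51 (AT1G18570, chromosome 1, 6389399 to 6391386), a MYB factor of indole glucosinolate genes, was at 81.5, 209.6 and 259 CPM in WT and 13.1, 13.8 and 13.5 CPM in OE APOLO-1 and fell by 3.76 ± 0.36 on the log2 scale (SE; edgeR adjusted p = 3.5e-04). WRKY33 (AT2G38470, chromosome 2, 16108235 to 16110766), which binds promoters of camalexin genes, was at 87.2, 205 and 243 CPM in WT and 28.9, 30.1 and 26.5 CPM in OE APOLO-1 and fell by 2.64 ± 0.3 (adjusted p = 4.8e-04). In both genes OE APOLO-1 libraries lay within a narrow band and WT A lay between them and WT B and C. Leaving out WT A, B or C left 15, 13 and 14 lower calls in the list. Tryptophan genes feed this pathway, and a list of them was put together after the values had been seen. Of its 10 genes 8 were called lower (7.68% of all genes). Among them was ASB1, a subunit of anthranilate synthase, at 98.3, 265 and 273 CPM in WT and 18.6, 16.6 and 16 CPM in OE APOLO-1. The isoforms ASA2 and PAI1 had log2 fold changes of 0.01 and 0.12 and did not pass.

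WRKY factors bind the W-box, and the promoters of CYP82C2 and WRKY33 are shown because both genes fell and both promoters hold it. The sequences are the 250 bases before the RefSeq gene start in TAIR10.1, in the direction of transcription, with motifs in capitals: TTGACC (W-box, or GGTCAA on the other strand) and GCCGCC (GCC-box, or GGCGGC). By these letters CYP82C2 holds 3 W-boxes, and WRKY33 holds 1 W-box and 1 GCC-box. Other forms of the W-box were not searched for, so they are neither marked nor counted here.
CYP82C2 (chr4:15462100-15462349, plus strand): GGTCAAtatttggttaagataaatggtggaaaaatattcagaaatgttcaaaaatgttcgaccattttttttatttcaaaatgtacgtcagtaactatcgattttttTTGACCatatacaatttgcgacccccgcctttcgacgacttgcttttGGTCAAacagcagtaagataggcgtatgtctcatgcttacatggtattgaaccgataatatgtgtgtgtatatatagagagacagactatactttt
WRKY33 (chr2:16107985-16108234, plus strand): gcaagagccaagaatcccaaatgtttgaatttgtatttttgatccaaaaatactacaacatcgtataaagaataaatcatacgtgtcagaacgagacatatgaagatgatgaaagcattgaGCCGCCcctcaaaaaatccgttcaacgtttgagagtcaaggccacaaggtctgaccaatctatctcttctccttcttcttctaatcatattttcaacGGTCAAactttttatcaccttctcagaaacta
Read on both strands, the W-box stood in 19.0% of the 1582 promoters of lower calls with a sequence, in 11.2% of the 538 of higher calls and in 12.3% of the 20549 of all genes tested. In the camalexin list it stood in 3 of 16. These shares describe letters in a window and no binding was measured.

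**Figure D3:**
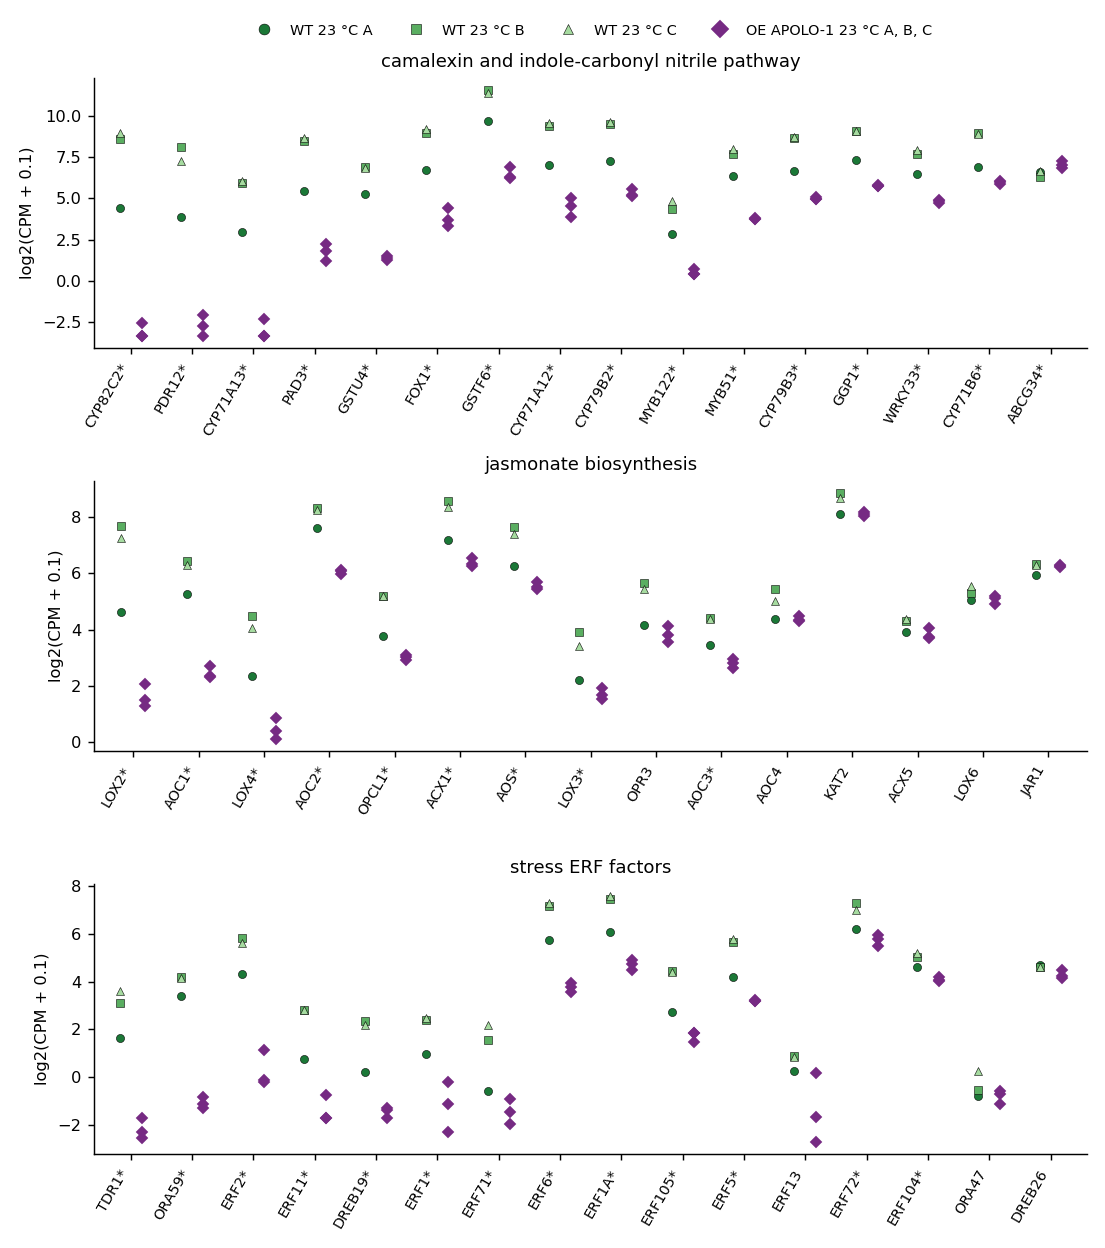
Level of each tested gene of 3 lists as log2(CPM + 0.1), with WT A, B and C as separate green symbols and the OE APOLO-1 libraries as purple diamonds. Genes with an asterisk were called. Within the camalexin list 15 of 16 genes lie lower in OE APOLO-1, with WT A between OE APOLO-1 and the other WT libraries for most of them.

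Jasmonate biosynthesis genes were lower in OE APOLO-1 at several steps. Of 15 tested, 9 were called lower (7.68% of all genes) and 0 higher. Their median log2 fold change was -1.64 (-0.67 against WT A, -2.10 against WT B and -1.72 against WT C). LOX2 (AT3G45140, chromosome 3, 16525245 to 16529352), the lipoxygenase that opens the plastid branch, was at 24.8, 205 and 153 CPM in WT and 2.33, 4.09 and 2.74 CPM in OE APOLO-1 and fell by 5.36 ± 0.73 on the log2 scale (SE; edgeR adjusted p = 0.0013). AOC1 and AOC2, allene oxide cyclases of the next step but one, were at 38.2, 86.5 and 77.5 CPM in WT and 4.94, 6.47 and 4.91 CPM in OE APOLO-1 and at 194, 318 and 302 CPM in WT and 62.5, 67 and 68.7 CPM in OE APOLO-1. Both had non-overlapping groups, and AOC2 fell by 2.04 ± 0.16 (adjusted p = 7.5e-05) and AOC1 by 3.62. AOC1, AOC2 and AOC3 are near-identical neighbours on chromosome 3 (9403779 to 9411090), all 3 called lower, and reads may be split among them. AOS, the allene oxide synthase before them, fell by 1.66, and LOX4 by 3.46. JAR1, which couples jasmonate to isoleucine, had a log2 fold change of 0.07, and OPR3, which reduces the ring intermediate, of -1.38 (adjusted p = 0.0103). Without WT A 14 genes of this list were called lower, without WT B 8 and without WT C 6.

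The JAZ repressors, which are themselves switched on by jasmonate, were called lower in 7 of 12 tested (7.68% of all genes). Their median log2 fold change was -1.38, with -1.21, -1.58 and -1.34 against WT A, B and C. JAZ1 (AT1G19180, chromosome 1, 6621777 to 6623668) was at 52.1, 142 and 164 CPM in WT and 16.4, 16.3 and 21.3 CPM in OE APOLO-1 and fell by 2.72 ± 0.35 on the log2 scale (SE; edgeR adjusted p = 8.6e-04). JAZ5 (AT1G17380) was at 3.36, 8.49 and 10.7 CPM in WT and 0.141, 0.207 and 0.103 CPM in OE APOLO-1 and fell by 5.54, JAZ6 by 2.21 and JAZ9 by 2.02. JAZ4 stood apart at a log2 fold change of 1.23, which did not pass. MYC2, the factor that JAZ proteins hold back, had -0.11 (adjusted p = 0.58).

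Of 18 genes of jasmonate output and turnover tested, 9 were called lower (7.68% of all genes) and 0 higher, with a median of -2.42. JOX2 and JOX4, oxygenases that inactivate jasmonate, fell by 2.09 and 4.68. The plant defensin PDF1.2 (AT5G44420, chromosome 5, 17906968 to 17907638) was at 6.66, 22.9 and 18.9 CPM in WT and had no count in any OE APOLO-1 library. Against a floor of 3 counts per library this is at least 92.8-fold lower than the WT mean and at least 38.3-fold lower than WT A (edgeR adjusted p = 9.3e-04). Its near-identical copy PDF1.2b (AT2G26020) was at 4.03, 4.39 and 7.57 CPM in WT and also had no count in OE APOLO-1, which is at least 30.6-fold lower. Reads shared by the copies could be split between them. With both genes at these bounds the median of the list is unchanged. Without WT A 13 genes of the list were called lower, and 7 without WT B or without WT C.

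Stress ERF factors were called lower in 13 of 16 tested (7.68% of all genes) and rose in none. The median log2 fold change was -2.80, with -1.5, -2.86 and -3.20 against WT A, B and C, and the median level was 3.07, 4.33 and 4.29 log2 CPM in WT and -0.17, -0.44 and 0.68 in OE APOLO-1. The list lay at 0.67 to 1.15 in WT at 29 °C and at 2.39 to 2.68 in vim1-3. ORA59 (AT1G06160, chromosome 1, 1882907 to 1883992), an ERF that joins jasmonate and ethylene signals at defensin genes, was at 10.4, 18.3 and 17.7 CPM in WT and 0.353, 0.466 and 0.31 CPM in OE APOLO-1. The groups did not overlap, and WT A was the lowest WT library. ORA59 fell by 5.32 ± 0.34 on the log2 scale (SE; edgeR adjusted p = 1.9e-05), and it was 1 of the 2 genes called by edgeR on the 6 libraries alone. ERF2 fell by 5.04 and TDR1 by 5.8. ERF6 (AT4G17490), a factor downstream of mitogen-activated kinases, was at 53.1, 147 and 156 CPM in WT and 15.2, 11.9 and 13.4 CPM in OE APOLO-1 and fell by 3.13. Among 13 ethylene biosynthesis and related genes tested, 5 were called lower (7.68% of all genes) and 1 higher (2.6%). The lower count was 6 without WT A, 3 without WT B and 2 without WT C. ACS6 (AT4G11280), which makes the ethylene precursor ACC, was at 20.04, 79.7 and 89.6 CPM in WT and 4.51, 3.67 and 4.6 CPM in OE APOLO-1 and fell by 3.88, ACS2 by 3.63 and ACO4 by 0.88.

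ERF proteins bind the GCC-box, and the promoters of ORA59 and of the defensins are shown with it in capitals. ORA59 also holds a G-box (CACGTG, the same on both strands), the motif that MYC2 binds.
ORA59 (chr1:1882657-1882906, plus strand): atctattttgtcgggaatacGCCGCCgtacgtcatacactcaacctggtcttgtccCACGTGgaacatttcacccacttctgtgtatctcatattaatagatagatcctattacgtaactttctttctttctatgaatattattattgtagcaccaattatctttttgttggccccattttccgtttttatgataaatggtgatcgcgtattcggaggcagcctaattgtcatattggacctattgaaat
PDF1.2 (chr5:17907639-17907888, minus strand): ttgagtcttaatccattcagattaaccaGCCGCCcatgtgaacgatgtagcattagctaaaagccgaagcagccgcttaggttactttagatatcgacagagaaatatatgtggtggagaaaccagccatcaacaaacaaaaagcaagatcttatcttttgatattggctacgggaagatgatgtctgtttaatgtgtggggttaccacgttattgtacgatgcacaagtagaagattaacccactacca
PDF1.2b (chr2:11088873-11089122, plus strand): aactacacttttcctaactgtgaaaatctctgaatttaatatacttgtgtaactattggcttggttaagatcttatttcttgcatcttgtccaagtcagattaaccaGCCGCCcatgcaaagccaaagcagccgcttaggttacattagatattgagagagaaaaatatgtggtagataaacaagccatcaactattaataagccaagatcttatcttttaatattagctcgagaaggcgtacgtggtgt
The GCC-box stood in 3.35% of promoters of lower calls, in 0.743% of those of higher calls and in 2.00% of those of all genes tested. The G-box stood in 7.65%, 4.83% and 7.42%. Of 12 JAZ promoters 4 held a G-box. A window without these letters says nothing of the factor.

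Genes of the early response to microbial patterns were lower in OE APOLO-1 throughout. Of 20 tested, 16 were called lower (7.68% of all genes). All 20 had a negative log2 fold change, with a median of -2.30 (-0.80, -2.66 and -2.55 against WT A, B and C). FLS2, the receptor for flagellin, fell by 2.25, and MPK11, a mitogen-activated protein kinase, by 4.04. FRK1 (AT2G19190, chromosome 2, 8326049 to 8329944), a receptor kinase used as a reporter of this response, was at 6.18, 24.5 and 14.8 CPM in WT and 0.987, 0.88 and 0.93 CPM in OE APOLO-1 and fell by 4.01 ± 0.45 on the log2 scale (SE; edgeR adjusted p = 4.0e-04). PROPEP1, PROPEP2 and PROPEP3, precursors of danger peptides, lie side by side on chromosome 5 (25934568 to 25940080) and all 3 were called lower, with log2 fold changes between -3.83 and -2.34. The list's median level was 4.99, 5.95 and 5.98 log2 CPM in WT and 3.86 to 4.03 in OE APOLO-1. It was 2.12 to 2.67 in WT at 29 °C and 3.83 to 4.12 in vim1-3, so the low level was not particular to OE APOLO-1. Without WT A all 20 genes were called, without WT B 10 and without WT C 10.

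Kinases and factors around this response followed. In the family of cysteine-rich receptor-like kinases (CRK), 14 of 31 tested were called lower (7.68% of all genes) and 1 higher (2.6%). CRK9 fell by 3.02, CRK31 by 4.1 and CRK45 by 4.14. Without WT A 23 were lower, without WT B 9 and without WT C 8. Of 58 WRKY factors tested 19 were called lower (7.68% of all genes) and 1 higher (2.6%). The median was -0.28, and most of the family was not called. Without WT A 25 WRKY genes were lower and 8 higher, and without WT B or without WT C 14 were lower. WRKY53 (AT4G23810), a senescence and defence factor, was at 4.7, 8.43 and 10.2 CPM in WT and 1.41, 0.983 and 1.4 CPM in OE APOLO-1 and fell by 2.6, but it overlaps a gene on the opposite strand, AT4G23800, that was called higher, and the strand setting of the counting is not stated. WRKY18 fell by 1.74 and WRKY8 by 3.28. Touch and calcium response genes were called lower in 6 of 10 tested (7.68% of all genes). TCH3 (AT2G41100, chromosome 2, 17137037 to 17139700), a calmodulin-like protein named for its rise after touch, was at 375, 1029.6 and 992 CPM in WT and 117, 115 and 105 CPM in OE APOLO-1 and fell by 2.83 ± 0.31 on the log2 scale (SE; edgeR adjusted p = 4.2e-04). CML38, also calmodulin-like, fell by 3.48, MYB15 by 4.6 and the calcium pump ACA13 by 2.9.

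Salicylic acid genes did not all move one way. Of 18 tested, 6 were called lower (7.68% of all genes) and 1 higher (2.6%), with a median of -0.66. SARD1 and CBP60G, the factors that switch on salicylic acid synthesis, fell by 2.03 and 1.88, and PAD4, a lipase-like regulator, by 0.89. PR1 (AT2G14610, chromosome 2, 6241640 to 6242541), the classic secreted marker of this hormone, went the other way at 1.49, 0.527 and 0.721 CPM in WT and 5.22, 3.26 and 3.72 CPM in OE APOLO-1, and it rose by 2.07 ± 0.37 (SE; edgeR adjusted p = 0.0026) with no overlap. Its level is low in every library. Without WT A 12 genes of the list were called lower, without WT C 3.

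Detoxification and glucosinolate genes were also among the lower calls. Tau-class glutathione transferases were called lower in 12 of 27 (7.68% of all genes) and higher in 1 (2.6%). These counts were 16 and 4 without WT A, 9 and 0 without WT B and 8 and 0 without WT C. On chromosome 2 (12626478 to 12634120) the 5 adjacent genes GSTU4, GSTU3, GSTU2, GSTU1 and AT2G29500 were all lower, the longest run of neighbours called lower. GSTU2 fell by 2.3, and the abundant GSTU19, at 831, 1426 and 1198 CPM in WT and 461, 485 and 503 CPM in OE APOLO-1, fell by 1.25. Aliphatic glucosinolates are sulfur compounds made from methionine against herbivores. Of their 15 tested genes 8 were called lower (7.68% of all genes) and 0 higher, with a median of -2.33. CYP83A1 (AT4G13770, chromosome 4, 7990429 to 7992429), which oxidises the aldoxime intermediates, was at 1.82, 11.7 and 5.53 CPM in WT and 0.141, 0.569 and 0.103 CPM in OE APOLO-1 and fell by 4.46 ± 0.76 on the log2 scale (SE; edgeR adjusted p = 0.0023). SUR1, the C-S lyase, fell by 1.99, and the sulfotransferases SOT17 and SOT18 by 4.13 and 1.26. Without WT B or without WT C 4 genes of this list were lower, and without WT A 13.

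Of the NAC factors, 11 of 56 were called lower (7.68% of all genes) and 3 higher (2.6%). Without WT A 20 were lower and 10 higher, without WT B 7 and 2, and without WT C 7 and 1. NAC3, also known as NAC055 (AT3G15500, chromosome 3, 5234457 to 5236196), was at 30.2, 48.8 and 51.6 CPM in WT and 10.3, 8.33 and 9.15 CPM in OE APOLO-1 and fell by 2.23 ± 0.18 on the log2 scale (SE; edgeR adjusted p = 8.8e-05). Its close relative NAC019, which acts with it downstream of jasmonate and abscisic acid, fell by 4.37. Abscisic acid genes were called lower in 5 of 17 (7.68% of all genes). RD20, a lipid-body protein induced by drought, was at 0.384, 7.67 and 5.77 CPM in WT and 0.0705, 0.311 and 0.103 CPM in OE APOLO-1. It was lower by 4.69 and the phosphatase ABI1 by 0.77. The abscisic acid count was 14 without WT A, 1 without WT B and 0 without WT C.

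Some heat shock genes were called lower, and with all libraries none was called higher. HSP101 (AT1G74310, chromosome 1, 27936508 to 27940369), the chaperone that dissolves protein aggregates, was at 11.2, 34 and 43 CPM in WT and 6.84, 5.75 and 5.94 CPM in OE APOLO-1 and fell by 2.23 ± 0.39 on the log2 scale (SE; edgeR adjusted p = 0.0035). HSP70 (AT3G12580) was at 24.5, 115 and 127 CPM in WT and 13.2, 13 and 13.4 CPM in OE APOLO-1 and fell by 2.74, and HSP90.1 by 2.89. HSP70 genes resemble each other and could share reads. In WT at 29 °C this HSP70 was at 189, 225 and 172 CPM, above all 6 libraries. Of 17 HSP70, HSP90 and HSP101 genes tested 3 were called lower and 0 higher, of 5 small heat shock proteins 2 and 0, and of 17 heat shock factors 3 and 0. These counts are too few to be read against the 7.68% lower and 2.6% higher over all genes. The first of these counts was 9 without WT A, 0 without WT B and 1 without WT C, and the count of small heat shock proteins was 4 without WT A. Of the heat shock factors 6 were lower and 2 higher without WT A, and 1 was lower without WT B or without WT C.

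The genes that rose did so by less. AT1G06090 (chromosome 1, 1846701 to 1849693), a fatty acid desaturase by its annotation, was at 4.12, 1.17 and 2.04 CPM in WT and 16.9, 21.3 and 14.7 CPM in OE APOLO-1 and rose by 2.79 ± 0.4 on the log2 scale (SE; edgeR adjusted p = 0.0012). HA7 (AT3G60330, chromosome 3, 22298373 to 22303718), a plasma membrane proton pump, was at 10.3, 2.46 and 7.21 CPM in WT and 29.3, 31 and 26.4 CPM in OE APOLO-1 and rose by 2.11 (adjusted p = 0.0029). GL22 (AT1G02335), a germin-like protein, was at 6.38, 8.9 and 9.85 CPM in WT and 21.3, 21.8 and 25.4 CPM in OE APOLO-1 and rose by 1.47 (adjusted p = 3.2e-04). In these 3 genes each OE APOLO-1 library was above each WT library. The lectin AT5G35940 rose by 2.33, AT3G23510, a cyclopropane-fatty-acyl-phospholipid synthase by annotation, by 2.07, AT2G16005, with an MD-2-related lipid recognition domain, by 2.34, and the lipid-transfer-type proteins AT3G53980 and AT1G48750 by 2.03 and 1.79. AT5G02090, which has no annotated role, rose by 1.95, and AT1G64590, a Rossmann-fold protein, by 1.85.

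Triterpene genes of the root differed widely among the WT libraries. The thalianol and marneral clusters are groups of neighbouring genes whose products make root triterpenes. All 8 genes were tested, and all 8 had non-overlapping groups with OE APOLO-1 higher (15.1% of all genes). Of these 1, CYP708A2, was called (2.6% of all genes). The median level was 2.60, -2.56 and 0.74 log2 CPM in WT and 4.19 to 4.42 in OE APOLO-1. It was 2.28 to 2.89 in WT at 29 °C and 3.30 to 3.83 in vim1-3, above every WT library at 23 °C in vim1-3. CYP708A2 (AT5G48000, chromosome 5, 19444103 to 19447866), the thalianol hydroxylase, was at 10.6, 2.93 and 5.65 CPM in WT and 38.4, 33 and 37.2 CPM in OE APOLO-1 and rose by 2.47 ± 0.39 on the log2 scale (SE; edgeR adjusted p = 0.0021). THAS1 (AT5G48010), the thalianol synthase, was at 8.01, 0.351 and 1.68 CPM in WT and 25.5, 27.3 and 31.9 CPM in OE APOLO-1 and did not pass (log2 fold change 2.95 ± 0.7, adjusted p = 0.015). CYP705A5 (AT5G47990), which desaturates thalianol, was at 29.9, 0.351 and 9.85 CPM in WT and 96.8, 92.3 and 98.5 CPM in OE APOLO-1, and MRN1, the marneral synthase, at 2.01, 0 and 0 CPM in WT and 8.11, 5.69 and 7.96 CPM in OE APOLO-1. WT B and C were at 0 for MRN1 and WT A was the highest WT library for all 4. Without WT A all 8 genes were called higher, without WT B 5 and without WT C 0.

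Root hair genes followed the same order of libraries. Of 20 listed, 19 were tested, and 18 had OE APOLO-1 above every WT library (15.1% of all genes). Only 2 were called higher (2.6% of all genes). The median level was 3.10, -2.56 and 1.69 log2 CPM in WT and 3.79 to 4.29 in OE APOLO-1, with 3.34 to 3.74 in WT at 29 °C and 3.42 to 3.97 in vim1-3. GL2 (AT1G79840, chromosome 1, 30036956 to 30041440), the homeodomain factor that keeps root cells hairless, was at 2.16, 1.29 and 2.04 CPM in WT and 6.91, 6.11 and 4.19 CPM in OE APOLO-1 and rose by 1.65 ± 0.25 on the log2 scale (SE; edgeR adjusted p = 0.0011). CPC, which moves into hair cells and opposes GL2, was at 1.49, 0.703 and 0.961 CPM in WT and 2.75, 2.74 and 2.43 CPM in OE APOLO-1 and rose by 1.29. RSL4 (AT1G27740), which sets hair length, was at 4.46, 0 and 1.32 CPM in WT and 9.73, 9.73 and 7.54 CPM in OE APOLO-1 (log2 fold change 2.12, adjusted p = 0.07). EXPA7 (AT1G12560), a hair-specific expansin, was at 14.8, 0.117 and 7.09 CPM in WT and 37.9, 34.8 and 35.7 CPM in OE APOLO-1, and COBL9, a wall protein of root hairs, at 5.18, 0.117 and 2.64 CPM in WT and 18.7, 15 and 11 CPM in OE APOLO-1. WT B was at or near 0 for RSL4, EXPA7 and COBL9, whereas GL2 was present in all 3 WT libraries. Without WT A 14 genes were called higher, without WT B 9 and without WT C 1.

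Root marker genes lay higher in OE APOLO-1, and shoot markers had no calls with all libraries. Of 16 root markers tested 1 was called higher (2.6% of all genes), and 11 had OE APOLO-1 above every WT library (15.1% of all genes). Without WT A 9 root markers were called higher, without WT B 8 and without WT C 0, and DESeq2 on the 6 libraries called 5. Their summed level was 504, 212 and 460 CPM in WT and 748 to 822 CPM in OE APOLO-1. It was 758 to 874 CPM in WT at 29 °C and 722 to 763 CPM in vim1-3, so the level of OE APOLO-1 was not particular to it. Of 19 shoot markers 0 were called in edgeR, DESeq2 or limma voom (3 at an unadjusted edgeR p under 0.05), and their summed level was 70392, 59251 and 59001 CPM in WT and 79668, 58205 and 74532 CPM in OE APOLO-1. Nuclear photosystem, antenna and Rubisco genes had 0 calls of 51 in edgeR (9 at an unadjusted p under 0.05), 1 in DESeq2 on 12 libraries, 0 in DESeq2 on the 6 libraries and 0 in limma voom, with a median of 0.13. Without WT A edgeR called 7 of these genes and 2 of the shoot markers higher. The share of root tissue in the libraries is not given by the labels, and its part in the higher calls was not tested. Aquaporins, the water channels that are abundant in roots, were called higher in 6 of 29 (2.6% of all genes) and lower in 1 (7.68%). PIP2A rose by 0.55, PIP1A by 0.75, PIP2B by 1.23 and PIP2;3 by 1.47, the last 2 with near-identical sequences. The aquaporin count was 15 without WT A, 8 without WT B and 0 without WT C. The auxin carrier PIN2, which is made in root epidermis and cortex, was at 13.6, 4.8 and 9.01 CPM in WT and 22.4, 27.8 and 18.5 CPM in OE APOLO-1 and rose by 1.31 (adjusted p = 0.00997). AHA2, the main proton pump of root epidermis, rose by 0.83.

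**Figure D4:**
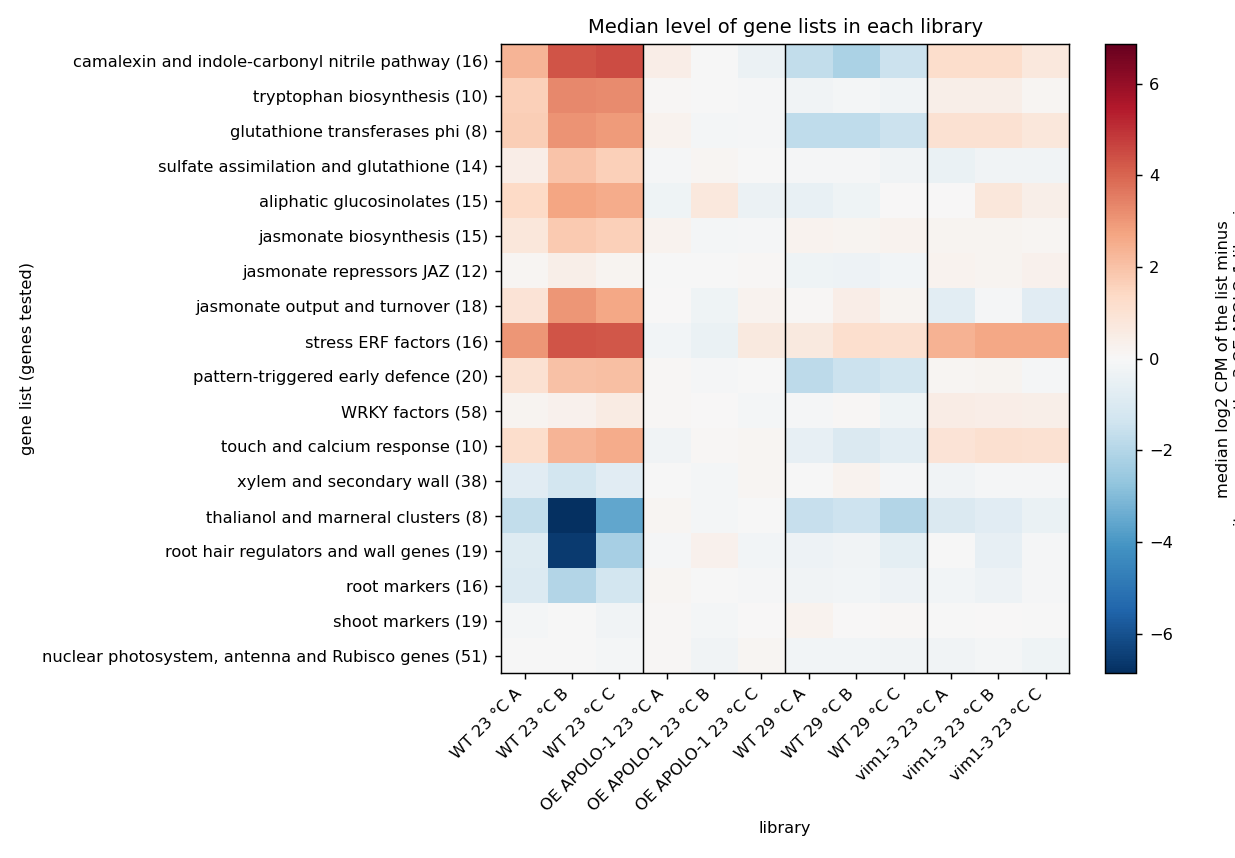
Median log2 CPM of each gene list in each of the 12 libraries, with the mean of the 3 OE APOLO-1 libraries subtracted, so that red is above and blue below OE APOLO-1. The number of genes tested is in brackets. WT B and C are red for the camalexin and stress ERF lists, WT A is paler, and WT B is darkest blue for the thalianol and root hair lists.

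Genes of xylem and secondary walls lay higher in OE APOLO-1, against all 3 WT libraries in the median. This list was put together after the values had been seen, and its count carries no test. Of 38 genes tested, 18 were called higher (2.6% of all genes) and 0 lower. The median log2 fold change was 0.82, with 0.63, 1.1 and 0.74 against WT A, B and C. The median level was 2.13, 1.64 and 2.15 log2 CPM in WT and 2.81 to 3.04 in OE APOLO-1. It was 2.83 to 3.19 in WT at 29 °C and 2.68 to 2.87 in vim1-3, so the level of OE APOLO-1 was not particular to it. CESA4, CESA7 and CESA8 are the 3 cellulose synthases of the secondary wall. CESA7 (AT5G17420, chromosome 5, 5736630 to 5741500) was at 8.05, 8.55 and 8.53 CPM in WT and 16, 16.6 and 15.4 CPM in OE APOLO-1 and rose by 0.93 ± 0.1 on the log2 scale (SE; edgeR adjusted p = 3.6e-04). CESA4 (AT5G44030, chromosome 5, 17714390 to 17719723) was at 16.3, 11.7 and 13.9 CPM in WT and 24.3, 25.3 and 25.5 CPM in OE APOLO-1 and rose by 0.84 (adjusted p = 0.0013), and CESA8 (AT4G18780) was at 9.11, 9.25 and 9.37 CPM in WT and 13, 15.3 and 14.2 CPM in OE APOLO-1 and rose by 0.62 (adjusted p = 0.003). For CESA7 and CESA8 the WT libraries, WT A included, agreed to within 1 CPM. The laccases LAC4, LAC11 and LAC17, which polymerise lignin, rose by 1.17, 1.74 and 0.82, and LAC11 was at 7.57, 4.8 and 9.61 CPM in WT and 25.5, 22.3 and 24.1 CPM in OE APOLO-1.

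Enzymes of vessel death rose with the walls. MC9 (AT5G04200, chromosome 5, 1153740 to 1155040), a metacaspase, was at 6.47, 5.91 and 9.97 CPM in WT and 19.8, 21.1 and 20.7 CPM in OE APOLO-1 and rose by 1.5 ± 0.21 on the log2 scale (SE; edgeR adjusted p = 8.6e-04). XCP1 (AT4G35350, chromosome 4, 16810482 to 16812077), a cysteine protease of xylem vessels, was at 21.5, 18 and 26.7 CPM in WT and 54.6, 46.6 and 47.8 CPM in OE APOLO-1 and rose by 1.18 (adjusted p = 0.0011), and its relative XCP2 by 0.73. RNS3 (AT1G26820), a ribonuclease, was at 2.44, 3.16 and 5.04 CPM in WT and 10.2, 14.6 and 13.4 CPM in OE APOLO-1 and rose by 1.92 (adjusted p = 4.2e-04), and the nuclease BFN1 by 1.44. The master regulators were not called: VND6, VND7, MYB46 and MYB83 had log2 fold changes of -0.35, 1.06, 0.73 and 0.91. XND1, a NAC factor that holds vessel formation back, was at 0.767, 1.93 and 1.2 CPM in WT and 0.212, 0.569 and 0.207 CPM in OE APOLO-1 (log2 fold change -1.92 ± 0.52, adjusted p = 0.02) and did not pass. The count of 18 was 24 without WT A, 16 without WT B and 14 without WT C.

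Promoters of vessel genes can hold the tracheary element-regulating element (TERE), searched for here on both strands. It stood in 5 of the 38 promoters of this list (XCP1, CESA4, MC9, FLA11 and LBD30), in 1.3% of promoters of higher calls, in 0.379% of those of lower calls and in 0.399% of those of all genes tested. The 3 called genes of the 5 are shown, with the element in capitals.
XCP1 (chr4:16810232-16810481, plus strand): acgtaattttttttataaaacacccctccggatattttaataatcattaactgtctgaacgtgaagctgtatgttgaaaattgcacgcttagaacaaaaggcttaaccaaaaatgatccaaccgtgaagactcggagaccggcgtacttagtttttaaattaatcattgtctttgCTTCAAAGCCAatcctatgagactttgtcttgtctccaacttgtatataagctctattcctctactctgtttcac
CESA4 (chr5:17714140-17714389, plus strand): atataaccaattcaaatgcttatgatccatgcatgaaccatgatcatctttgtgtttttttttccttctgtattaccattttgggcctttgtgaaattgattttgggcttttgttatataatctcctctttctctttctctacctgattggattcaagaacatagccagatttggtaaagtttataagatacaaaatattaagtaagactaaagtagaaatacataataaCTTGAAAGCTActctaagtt
MC9 (chr5:1153490-1153739, plus strand): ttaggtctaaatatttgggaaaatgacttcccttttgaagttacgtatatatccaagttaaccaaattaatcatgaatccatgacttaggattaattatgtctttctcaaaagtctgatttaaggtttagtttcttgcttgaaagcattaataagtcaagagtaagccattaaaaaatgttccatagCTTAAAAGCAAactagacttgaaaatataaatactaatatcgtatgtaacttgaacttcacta
The element lies 75, 20 and 63 bases before the gene start in XCP1, CESA4 and MC9.

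**Figure D5:**
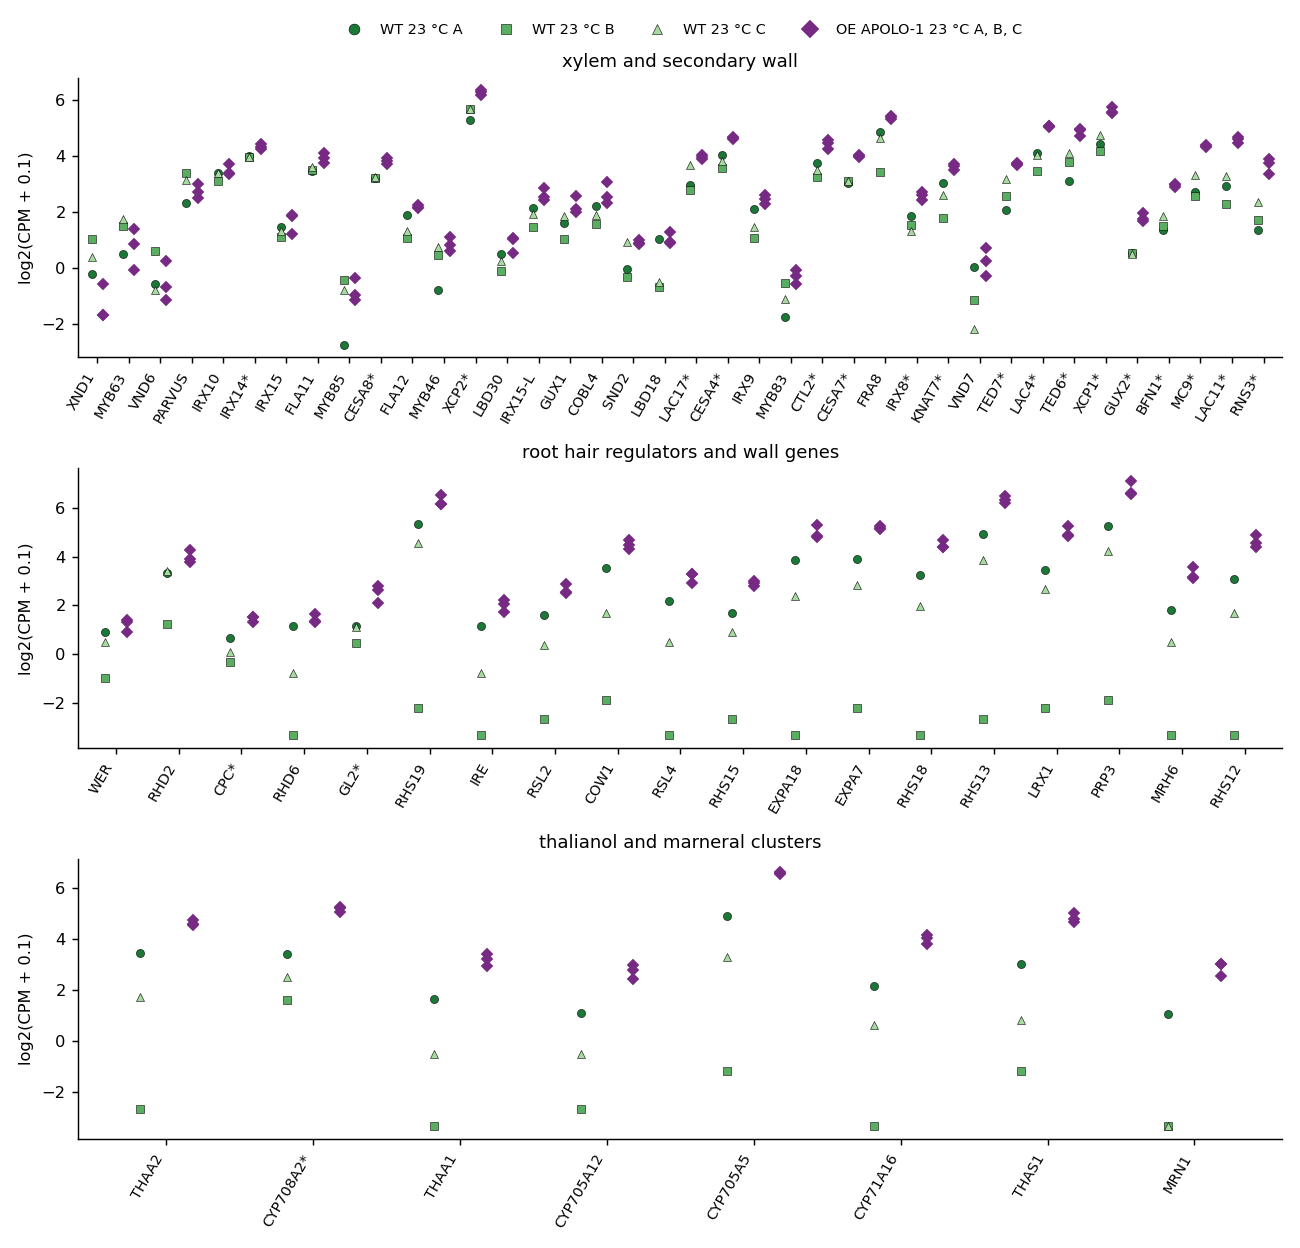
Level of each tested gene of 3 lists as log2(CPM + 0.1), with WT A, B and C as separate green symbols and OE APOLO-1 libraries as purple diamonds. Genes with an asterisk were called. The WT symbols lie close together for most xylem genes and far apart for root hair and thalianol genes, where WT B is lowest.

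Auxin genes, the system for which APOLO is best known, had few calls with all libraries. Of 64 SAUR genes 2 were called lower, of 26 IAA repressors 2 higher and 3 lower, and of 10 GH3 enzymes 1 each way. GH3.3 (AT2G23170), which couples auxin to amino acids, was at 11.7, 27.6 and 24.3 CPM in WT and 5.01, 4.24 and 3.26 CPM in OE APOLO-1 and fell by 2.34 on the log2 scale, and GH3.17 rose by 0.5. IAA10, IAA2 and IAA20 fell by 1.67, 0.74 and 3.39, and IAA28 rose by 0.77. Of 8 auxin biosynthesis genes tested 0 were called in edgeR, DESeq2 or limma voom (4 at an unadjusted edgeR p under 0.05), with a median of -0.25, and 1 of 14 transport genes, PIN2. Without WT A 13 SAUR genes were called higher and 6 lower, 4 IAA genes higher and 6 lower, 3 GH3 genes higher and 5 lower, and 2 transport genes higher and 5 lower, with 1 biosynthesis gene lower. Without WT B or without WT C 0 SAUR genes were called, and without WT C the IAA count was 0 higher and 1 lower. Among 12 PIF factors and thermomorphogenesis genes, PIF3, a factor that promotes hypocotyl growth, fell by 1.45, and HY5, which opposes it in light, rose by 0.87, and without WT C 0 genes of this list were called. Of 7 reported targets and neighbours of APOLO tested, PID was called and 6, APOLO among them, were not. With all libraries kept there were 0 to 3 calls in each direction, and these counts are too few to be read against the background of 2.6% higher and 7.68% lower.

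Genes of DNA methylation and of the Polycomb system were almost all uncalled with all libraries, as were 18538 of the 20664 genes tested (7.68% lower and 2.6% higher). Their counts, and those of the clock, chlorophyll and cell division genes below, are near these shares or too few to be read against them. Of 40 methylation genes tested 2 were lower, VIM2 and the demethylase DML2, which fell by 0.91, and of 20 Polycomb and LHP1 genes 0 were called in edgeR, with medians of 0.04 and -0.09. Of the Polycomb and LHP1 genes 6 had an unadjusted edgeR p under 0.05, and 1 was called in DESeq2 on 12 libraries, 0 on the 6 libraries and 0 in limma voom. Without WT A 3 Polycomb and LHP1 genes were called higher, and 2 methylation genes higher and 3 lower, while 1 methylation gene was lower without WT B or without WT C. Core clock genes had 0 calls of 17 in edgeR, DESeq2 or limma voom, with 5 at an unadjusted edgeR p under 0.05. Chlorophyll biosynthesis had 0 of 17 in edgeR and limma voom, with 9 at an unadjusted edgeR p under 0.05 and 1 called lower in each DESeq2 fit. Without WT A 8 of the clock genes and 5 of the chlorophyll genes were called higher, and 2 chlorophyll genes lower. Of 38 cell division genes 3 were higher, CYCB1;2, KNOLLE and CDKB2;1, by 0.87, 0.69 and 0.68. That count was 10 without WT A, 0 without WT B and 0 without WT C, and 1 in DESeq2 on the 6 libraries. Of 80 plastid-encoded genes tested 0 were called in edgeR, with 53 at an unadjusted p under 0.05. Their median log2 fold change was -1.99, but it was -2.70 against WT A, -2.17 against WT B and -0.36 against WT C. DESeq2 called 36 of them lower and 1 higher on the 6 libraries and 16 lower on 12 libraries, and limma voom called 0. The share of counts from the plastid genome was 0.490% ± 0.250 in WT and 0.197% ± 0.0537 in OE APOLO-1 (SD, n = 3 each, two-sided exact permutation p = 0.20, the smallest possible being 0.10). By library it was 0.666, 0.600 and 0.205% in WT and 0.160, 0.259 and 0.173% in OE APOLO-1. WT C thus lay within the range of OE APOLO-1.

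Some levels in OE APOLO-1 lay outside all 9 other libraries. In 499 genes (2.41% of those tested) the 3 OE APOLO-1 libraries were above, and in 539 (2.61%) below, every other library, which holds for 126 of the 538 higher calls and 252 of the 1588 lower calls. The comparisons with WT at 29 °C (717 genes or 3.47% higher, 972 or 4.7% lower) and with vim1-3 (120 or 0.581% higher, 267 or 1.29% lower) share the OE APOLO-1 libraries with the main one, so they are no separate evidence. In all 3 comparisons 6 genes were called higher and 31 lower. NAC3, already named, is 1 of the 31, at 18.2, 20.4 and 21.7 CPM in WT at 29 °C and 23.9, 23.8 and 26.5 CPM in vim1-3. MAF4 (AT5G65070, chromosome 5, 25992193 to 25996202), a MADS-box repressor of flowering, was at 5.7, 3.57 and 5.53 CPM in WT and 2.26, 1.97 and 1.91 CPM in OE APOLO-1, at 4.72, 4.04 and 4.45 CPM in WT at 29 °C and at 5.71, 5.16 and 6.76 CPM in vim1-3. It fell by 1.27 ± 0.21 against WT at 23 °C (SE; edgeR adjusted p = 0.0017). Other regulators among the 31 were WRKY22, ERF104, TEM1, RAV2 and GATA4. Of the 6 higher genes, CER1 (AT1G02205, chromosome 1, 418416 to 422579), which makes the alkanes of leaf wax, was at 2.35, 3.22 and 2.04 CPM in WT and 7.19, 5.12 and 5.58 CPM in OE APOLO-1, at 2.8, 2.77 and 2.81 CPM in WT at 29 °C and at 3.19, 1.67 and 1.99 CPM in vim1-3. JAL33, a jacalin-type lectin, was at 231, 197 and 218 CPM in WT and 394, 366 and 401 CPM in OE APOLO-1 and rose by 0.85. SADHU3-2, a retroelement-derived pseudogene, AT1G06360, AT3G07720 and AT2G26730 complete the 6.

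Lower calls lay side by side in places. Among tested genes in chromosome order there were 28 runs of at least 3 neighbours all called lower, 91 genes in all, and 1 run of 4 called higher. Beside the GSTU, AOC and PROPEP runs, CRK36 and CRK39 on chromosome 4, and CYP82C3, CYP82C2 and AT4G31980 on the same chromosome (15455083 to 15469204), were lower together. Many of these runs hold gene copies that resemble each other and could share reads. The higher run, on chromosome 4 from 12220641 to 12231718, holds the aquaporin PIP1;5, TET5, AT4G23420 and Tic32-IVa. Over the 5 nuclear chromosomes, 6.45 to 8.40% of tested genes were called lower and 2.36 to 2.94% higher.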

How the data were processed

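RNA was sequenced from seedlings, as 75-base single reads per the study's methods. The authors trimmed reads (Trimmomatic 0.36), removed ribosomal reads, aligned them to TAIR10 (STAR 2.5.2b) and counted them per Araport11 gene (featureCounts, Subread 1.6.5), versions per the labels, and deposited raw counts. The strand setting of the counting is not given in the sources used here. Of 37336 gene IDs, 37051 were matched to RefSeq TAIR10.1, the source of symbols, coordinates and promoters.

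Counts were filtered with filterByExpr by group, scaled with TMM and fitted for all 12 libraries with glmQLFit (robust) and glmQLFTest in edgeR 4.0.16 (R 4.3.3), with Benjamini-Hochberg adjustment and a threshold of 0.01. The SE is the log2 fold change divided by the square root of F. Differences from single libraries use log2 CPM with a prior count of 2. On simulated data the fit recovered 58 of 100 genes changed 2-fold and 88 of 100 changed 4-fold, with 0 false calls among 20664 genes. On the 6 libraries alone edgeR recovered 48 and 86 of these in simulation but called 2 genes in the real data. Simulated and real data thus behaved differently in that fit, so the 0 false calls cannot vouch for the real calls.

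Named genes were APOLO, PID, YUC2, VIM1 to VIM3, LHP1, MET1 and PP2A. To these were added, among calls averaging 10 CPM or more over the 6 libraries whose groups did not overlap, the 10 higher and 10 lower with the largest shrunken fold (prior count 5) and the 8 each way with the widest gap, and up to 4 called members a list by smallest p. Further list members, the genes beyond all other libraries, MRD1 and the printed promoters were chosen after their values were seen. Members and lists were chosen with earlier results of these data known. The replicates are independent biological replicates per the study's methods. The p-values of the main fit rest on a spread shared by all libraries of the series. They therefore do not measure the spread between the compared replicates alone. Shared letters are not stated to pair libraries. Some list members are not reported by name here. There were 0 columns of other samples. Alternatives were other factors, DESeq2 1.42.0, limma 3.58.1 (voom), other filters, a replicate block, a threshold of 0.05 and each library left out.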

Additional observations from a re-analysis of the deposited data

How the results depend on the processing

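No named gene and no call of the main fit changed direction under any alternative. For the calls this carries no weight, since their groups did not overlap and the alternatives could hardly have reversed them. DESeq2 on 12 libraries called 3406 genes, 1258 higher and 2148 lower, so that 36.9% of its calls were higher against 25.3% in the main fit. Upper-quartile factors called 740 higher and 1417 lower, or 34.3% higher. The limma voom fit with group weights called 1161 genes, 186 higher and 975 lower. At an adjusted p below 0.05 edgeR called 4701, 1751 higher and 2950 lower. On the 6 libraries compared edgeR called 2 genes, 0 higher and 2 lower. Without 3 libraries whose deviations from their group means correlate (OE APOLO-1 A, WT 29 °C B and WT C, chosen after seeing the data), 6 genes were called, 1 higher and 5 lower, among them DIN11, MRD1 and RNS3. The cause of these drops was not tested. Leaving out 1 library at a time gave 650 to 6133 calls, 121 to 2566 higher and 529 to 3567 lower, with the lowest without OE APOLO-1 B and the highest without WT A. Of the 2126 main calls 2117 remained without WT A, 1270 without WT B, 1029 without WT C, and 646 to 831 without 1 OE APOLO-1 library.

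The fit with the replicate letter as a block called 395 genes higher and 1229 lower, of which 1584 were main calls. Deviations of libraries with the same letter did not correlate throughout (WT A with OE APOLO-1 A -0.06, WT B with OE APOLO-1 B -0.03, WT C with OE APOLO-1 C -0.13), so the letters are treated as names only. Of the 129 named genes the block cost 18 their call, voom 46 and DESeq2 on 6 libraries 10. The shallowest library, WT C with 8824476 counts, limits the precision at low levels.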

Other observations

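Supply genes of the sulfur and indole compounds were listed after the values had been seen, so the counts describe and test nothing. In tryptophan biosynthesis 8 of 10 genes were called lower (7.68% of all genes). The median log2 fold change was -2.84 (-1.55, -3.24 and -3.17 against WT A, B and C). The median level of that list was 6.28, 7.91 and 7.84 log2 CPM in WT, 4.53 to 4.71 in OE APOLO-1, 4.39 to 4.47 in WT at 29 °C and 4.74 to 5.02 in vim1-3. In sulfate assimilation and glutathione synthesis 9 of 14 were called lower (7.68% of all genes) and 1 higher (2.6%). APK2, which activates sulfate for sulfotransferases, was at 106, 312 and 315 CPM in WT and 16.2, 13.6 and 13.4 CPM in OE APOLO-1 and fell by 4.08 on the log2 scale (edgeR adjusted p = 3.3e-04). APR1, which reduces the activated sulfate, fell by 3.86, and GSH1 and GSH2, the enzymes of glutathione synthesis, by 1.58 and 1.33. APS4, an ATP sulfurylase, rose by 0.71, and its relative APS2 had a log2 fold change of 0.08.

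Of 8 phi-class glutathione transferases tested, 7 were called lower (7.68% of all genes) and 1 higher (2.6%). GSTF2, which has near-identical copies, was at 793, 5217 and 4364 CPM in WT and 203, 146 and 162 CPM in OE APOLO-1 and fell by 4.34 on the log2 scale (edgeR adjusted p = 0.0012). GSTF4 rose by 1.2. The count was 7, 6 and 6 without WT A, B and C.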
